A study of Homo sapiens with 12 samples.

Results

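Acriflavine left an uneven mark on the genes of the YAP and TEAD pathway in cells labelled as the liver tumour line HepG2. YAP1 mRNA was 1.44-fold higher at 2.5 µM and 1.49-fold higher at 5 µM than in control. TEAD1 was higher at the low dose and lower at the high dose. Of 4 classical target genes, CCN1, ANKRD1 and AMOTL2 were highest at 2.5 µM, while CCN2 climbed at each step and stood 19.5-fold above control at 5 µM. The 10 genes described are the coactivators YAP1 and WWTR1, the DNA-binding partners TEAD1 and TEAD4, the kinases LATS1 and LATS2 and the target genes CCN1, CCN2, ANKRD1 and AMOTL2. They were chosen by symbol, and 10 of 10 were found among the 63152 genes of the count table.

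In the Hippo pathway, the kinases LATS1 and LATS2 phosphorylate the coactivator YAP (gene YAP1) and its relative TAZ (gene WWTR1), which keeps both out of the nucleus and marks them for degradation. YAP and TAZ that escape this control enter the nucleus and, having no DNA-binding domain, act through the TEAD transcription factors. In the liver the pathway is known for its control of organ size and of the choice between hepatocyte and bile duct fate, and YAP activity is frequent in liver tumours. Messenger RNA levels, which are what was measured, do not report the phosphorylation or the location of the proteins.

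Poly-A RNA was sequenced in 12 libraries, 4 for each of 3 groups. The groups were cells kept without drug (control), cells given 2.5 µM acriflavine and cells given 5 µM acriflavine, each collected after 24 h. Acriflavine is an acridine dye that intercalates into DNA and was used here in a study of the epithelial-to-mesenchymal transition. The labels name the cell line HepG2, a hepatoblastoma line, and the sample descriptions name HepG2S1, a subline selected from it with rising doses of sorafenib, so that all 3 groups share this history. The control samples are labelled as having no treatment, while the treatment protocol gives DMSO vehicle as the alternative to drug. The series text calls the 4 libraries of a group biological replicates, but the labels do not say whether cultures were grown separately.

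Depth per library was 11891849 to 14024568 counts in control, 13095641 to 15115510 at 2.5 µM and 10733567 to 15116842 at 5 µM. Levels are given as CPM (counts scaled to a common library size) on TMM-scaled library sizes, and differences come from 1 edgeR quasi-likelihood fit over 16839 genes with Benjamini-Hochberg adjustment. The defining markers of hepatocytes went against the HepG2 label, so the cells are named here only as labelled. None of 11 hepatocyte and hepatoblast markers averaged 1 CPM in control or at 2.5 µM, and 3 of 11 did at 5 µM. Their summed level was 0.879 to 1.69 CPM in control, 0.915 to 2.23 CPM at 2.5 µM and 3.65 to 6.45 CPM at 5 µM, with ALB, AFP, AHSG and FOXA2 among those at 0 in every control library. The 4 cholangiocyte markers were all expressed and led by KRT7. Their summed level was 3622 to 4074 CPM in control, 3525 to 3991 CPM at 2.5 µM and 1483 to 1779.6 CPM at 5 µM. They did not move together. At 5 µM against control the log2 fold change was -1.19 ± 0.06 (SE) for KRT7 and -1.99 ± 0.06 for KRT19. It was 0.73 ± 0.15 for EPCAM and 3.17 ± 0.20 for SOX9. Of 7 fibroblast markers 4 were expressed in each group, with COL1A2, COL3A1 and THY1 at 0 in control. The sums of the 7 were 619 to 769, 548 to 605 and 557 to 599 CPM in control, at 2.5 µM and at 5 µM. At 5 µM against control DCN (-0.32 ± 0.05) and LUM (-0.54 ± 0.10) fell, while COL1A1 (0.45 ± 0.09) and PDGFRB (1.86 ± 0.12) rose. Of 5 endothelial markers 2 averaged 1 CPM or more, at 5 µM alone, with sums of 0.169 to 0.537, 0.616 to 1.36 and 7.13 to 8.69 CPM in control, at 2.5 µM and at 5 µM and PECAM1 at 0 throughout. Of 5 leukocyte markers 2 did so at 5 µM alone, with sums of 0.448 to 1.10, 0.757 to 1.39 and 3.56 to 4.54 CPM and CD3E at 0 throughout. The part of these shifts in the results below was not tested. In bulk RNA, fewer cells of a type and less RNA per cell cannot be told apart.

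Many genes responded to the drug, so each count over the 10 genes is given beside that of all genes tested. The 10 genes and the lists below were chosen with earlier results of these data known. A count above the share of all genes is therefore no test of the pathway. At 5 µM against control, 6 of the 10 rose and 3 fell, with 1 not past the test, against a background of 38.7% of all genes higher and 39.4% lower. In that comparison 7 of 10 had no overlap between the 4 and 4 values, close to the 70.8% of all genes. At 2.5 µM against control, 8 rose and none fell, beside 30.7% and 28.5% of all genes, and 8 had no overlap, beside 50.5%. At 5 µM against 2.5 µM, 2 rose and 6 fell, beside 33.6% and 34.8%, and 8 had no overlap, beside 62.1%. The median log2 fold change of the 10 genes was 0.33, 0.42 and -0.41 in these 3 comparisons, and that of all genes was -0.01, 0.02 and -0.01. The comparisons of each dose with control share the same 4 control libraries.

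By dose pattern, 5 of the 10 (TEAD1, LATS2, CCN1, ANKRD1 and AMOTL2) were higher at 2.5 µM than in control and higher than at 5 µM, both past the test, a pattern held by 7.87% of all genes. CCN2 and WWTR1 rose at each step, as did 14.8% of all genes. The remaining YAP1, TEAD4 and LATS1 had neither pattern.

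**Figure D1:**
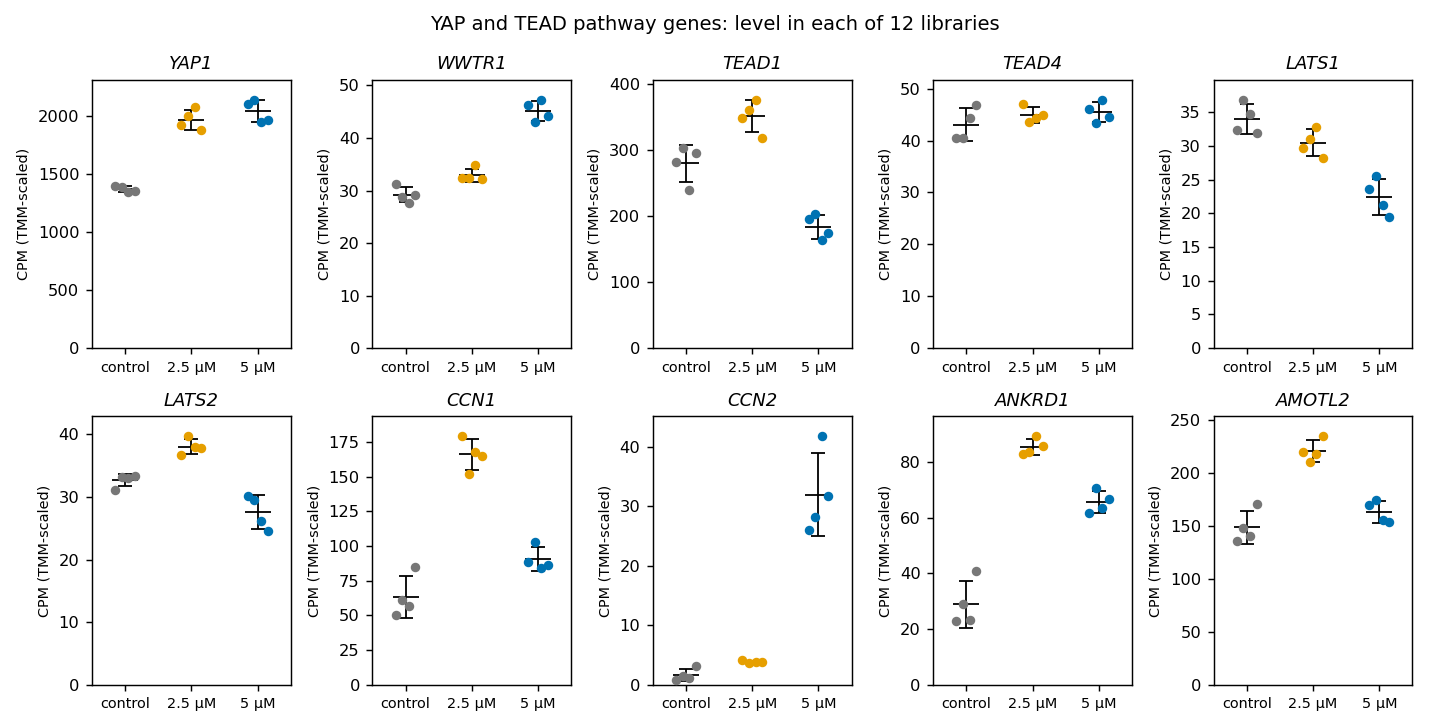
Level of each gene in each of the 12 libraries (y axis, TMM-scaled CPM from 0; x axis, control, 2.5 µM and 5 µM acriflavine). Points are libraries, and the line and bars are the mean ± SD of 4. YAP1 is at 1343 to 1397 CPM in control and at 1879 CPM or more with drug, and CCN2 is at 26.1 to 41.8 CPM only at 5 µM.

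TEAD factors are known to bind DNA at GGAATG, and upstream sequence was read for the genes with an entry in the RefSeq promoter table (GRCh38.p14). A window was found for 7 of 10, and CCN1, TEAD1 and TEAD4 had none. The 250 bases before each start were searched for GGAATG on both strands, with no other motif searched. Of all 35116 promoter windows of this length, 11.9% held the motif at least once, 0.94% at least 2 times and 0.0826% at least 3 times. The 4 windows that hold it are printed because the dose patterns of their genes are not all alike. ANKRD1 and AMOTL2 were both highest at 2.5 µM. Each window runs from the 5′ end to the base before the start, on the strand of the gene and with the motif in capitals.
CCN2 (chr6:131951373-131951622, minus strand): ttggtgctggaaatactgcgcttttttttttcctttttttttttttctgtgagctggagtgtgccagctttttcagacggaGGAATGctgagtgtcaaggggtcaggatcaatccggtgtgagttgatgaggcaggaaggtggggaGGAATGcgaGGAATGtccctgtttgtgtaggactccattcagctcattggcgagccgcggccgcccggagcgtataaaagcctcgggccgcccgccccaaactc
ANKRD1 (chr10:90921088-90921337, minus strand): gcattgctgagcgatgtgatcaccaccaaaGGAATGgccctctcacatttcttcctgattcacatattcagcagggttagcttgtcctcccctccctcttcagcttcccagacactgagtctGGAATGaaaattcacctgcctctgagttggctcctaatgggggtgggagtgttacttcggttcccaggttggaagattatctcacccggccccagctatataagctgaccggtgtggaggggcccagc
YAP1 (chr11:102110197-102110446, plus strand): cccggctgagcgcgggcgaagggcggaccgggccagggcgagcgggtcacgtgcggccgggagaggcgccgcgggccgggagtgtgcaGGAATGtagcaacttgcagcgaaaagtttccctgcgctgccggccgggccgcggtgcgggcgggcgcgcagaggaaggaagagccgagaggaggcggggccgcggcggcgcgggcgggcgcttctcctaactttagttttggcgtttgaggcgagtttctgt
AMOTL2 (chr3:134374448-134374697, minus strand): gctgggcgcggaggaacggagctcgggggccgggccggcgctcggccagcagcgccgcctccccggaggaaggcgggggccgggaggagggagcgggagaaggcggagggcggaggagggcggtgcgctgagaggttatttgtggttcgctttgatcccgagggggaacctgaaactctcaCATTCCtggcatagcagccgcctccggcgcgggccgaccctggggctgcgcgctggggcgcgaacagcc

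The CCN2 window held 3 copies, which begin 169, 104 and 95 bases before the start. Only 29 of the 35116 windows held as many. The ANKRD1 window held 2 copies, beginning 220 and 128 bases before the start, and the YAP1 window 1 copy at 162 bases. AMOTL2 had 1 copy on the opposite strand (CATTCC in the printed sequence) at 69 bases, in 1 of its 2 windows. No match was found in the windows of WWTR1, LATS1 and LATS2. Among other known target genes, 5 of 12 with a window held the motif: AXL, FOXF2, NUAK2, PTPN14 and TGFB2. This counts genes, over all windows of each, while the 11.9% above counts windows, so the shares are not directly comparable. A match shows only that these letters are present.

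Of the coactivators, YAP1 was by far the more abundant. YAP1 (ENSG00000137693) had 1397, 1391, 1343 and 1351 CPM in the 4 control libraries, 1926, 2002, 2076 and 1879 CPM at 2.5 µM, and 2102, 2143, 1952 and 1968 CPM at 5 µM. Every treated library was above every control library, and the dose groups overlapped each other. The log2 fold change was 0.57 ± 0.04 (SE) at 5 µM against control (edgeR adjusted p = 7.93e-14) and 0.52 ± 0.04 at 2.5 µM against control (adjusted p = 3.20e-12). Between 5 µM and 2.5 µM it was 0.05 ± 0.04 (adjusted p = 0.306), a difference that passed the test at 0.10 (adjusted p = 0.0292) under upper quartile scaling and at 0.14 (adjusted p = 0.00356) with library size alone. Per kilobase of exon, YAP1 ranked 219 of 16492 genes in control, 96 at 2.5 µM and 85 at 5 µM. An antisense gene that overlaps YAP1, AP000942.2, had 18, 22 and 25 summed counts in control, at 2.5 µM and at 5 µM, against 67822, 108800 and 106683 for YAP1.

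WWTR1 (ENSG00000018408), which encodes TAZ, was far less abundant. It had 31.2, 28.8, 27.7 and 29.2 CPM in control, 32.4, 32.4, 34.8 and 32.1 CPM at 2.5 µM, and 46.2, 43.1, 47.3 and 44.2 CPM at 5 µM. The 3 groups did not overlap, and the step to 5 µM was the wider. Relative to control it rose by 0.63 ± 0.07 on the log2 scale at 5 µM (edgeR adjusted p = 1.57e-10) and by 0.17 ± 0.07 at 2.5 µM (adjusted p = 0.0296), and it rose by 0.46 ± 0.06 at 5 µM against 2.5 µM (adjusted p = 1.26e-07). The small rise at 2.5 µM was no longer called without 2.5 µM replicate 3 (0.14, adjusted p = 0.0896), control replicate 2 (0.16, adjusted p = 0.0656) or control replicate 3 (0.12, adjusted p = 0.142), or with no filter on low counts (0.17, adjusted p = 0.0554). The antisense gene WWTR1-AS1 shares exonic bases with WWTR1 and had 19, 40 and 110 summed counts in control, at 2.5 µM and at 5 µM, against 1447, 1817 and 2375 for WWTR1. The strand setting of the counting is not given in the sources used here, so reads of the pair cannot be told apart.

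YAP1 supplied nearly all of the coactivator mRNA at every dose. Per kilobase, its share of the summed YAP1 and WWTR1 level was 98.4% ± 0.0604 in control, 98.8% ± 0.0287 at 2.5 µM and 98.4% ± 0.123 at 5 µM (SD, n = 4 each).

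TEAD1 (ENSG00000187079), the most abundant TEAD gene of the control cells, turned with dose. It had 283, 303, 240.3 and 296 CPM in control, 349.8, 361, 377 and 319 CPM at 2.5 µM, and 196, 203, 164 and 174 CPM at 5 µM. All 3 groups were separate, with 2.5 µM highest and 5 µM lowest. At 5 µM it fell by 0.61 ± 0.08 on the log2 scale against control (edgeR adjusted p = 1.28e-06) and by 0.94 ± 0.08 against 2.5 µM (adjusted p = 8.14e-09). At 2.5 µM it rose by 0.33 ± 0.08 against control (adjusted p = 0.00134).

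TEAD4 (ENSG00000197905) had 40.5, 40.5, 44.4 and 46.9 CPM in control, 47.1, 43.5, 44.3 and 45.0 CPM at 2.5 µM, and 46.1, 43.4, 47.9 and 44.6 CPM at 5 µM. The groups overlapped throughout. Its log2 fold change was 0.08 ± 0.06 at 5 µM against control (edgeR adjusted p = 0.238) and 0.06 ± 0.06 at 2.5 µM against control (adjusted p = 0.388). With library size alone in place of TMM scaling, the first of these became 0.22 (adjusted p = 0.00200).

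The remaining TEAD genes moved apart. TEAD3 averaged 33.2 ± 1.30 CPM in control, 52.6 ± 1.63 at 2.5 µM and 107 ± 5.77 at 5 µM (SD, n = 4 each), a log2 fold change of 1.69 ± 0.06 at 5 µM against control (edgeR adjusted p = 3.65e-23) and of 0.67 ± 0.06 at 2.5 µM against control (adjusted p = 2.02e-11). TEAD2 averaged 23.0 ± 1.52, 16.0 ± 0.736 and 15.6 ± 1.47 CPM in control, at 2.5 µM and at 5 µM, and at 5 µM it fell by 0.56 ± 0.08 on the log2 scale against control (adjusted p = 4.13e-07). The make-up of the TEAD mRNA pool thus differed between the groups. Per kilobase, the summed level of the 4 TEAD genes was 64.8 ± 2.25 CPM in control, 76.6 ± 1.51 at 2.5 µM and 78.4 ± 2.85 at 5 µM (SD, n = 4 each). TEAD1 made up 42.0% ± 3.27 of this sum in control, 44.6% ± 2.31 at 2.5 µM and 22.9% ± 2.11 at 5 µM. TEAD3 made up 16.8% ± 0.958 in control, 22.5% ± 1.12 at 2.5 µM and 44.9% ± 1.19 at 5 µM, and its 4 values at 5 µM (44.2% to 46.7%) lay above all others. These shares are given without a test.

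**Figure D2:**
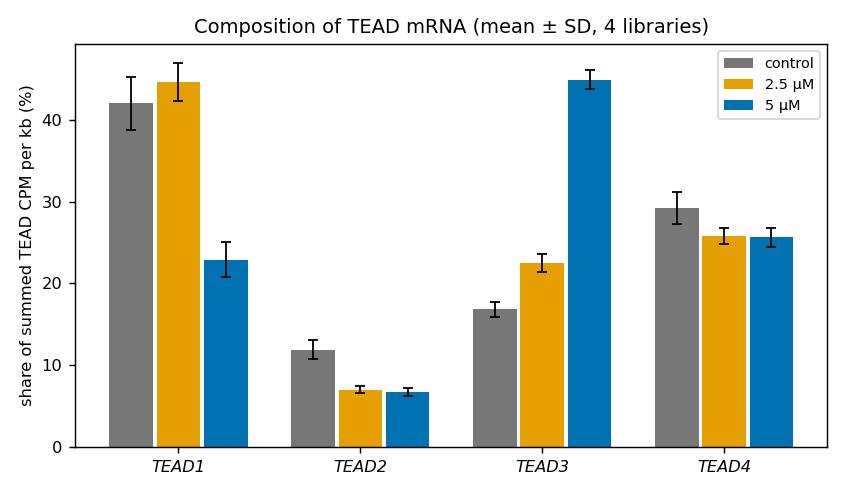
Share of each TEAD gene in the summed TEAD level per kilobase of exon (y axis, percent from 0), for control, 2.5 µM and 5 µM acriflavine; bars are means and error lines SD of 4 libraries. TEAD1 makes up 22.9% at 5 µM and 42.0% in control, and TEAD3 44.9% at 5 µM and 16.8% in control.

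The kinases were lowest at 5 µM. LATS1 (ENSG00000131023) had 32.4, 36.9, 34.8 and 32.0 CPM in control, 29.7, 31.1, 32.9 and 28.2 CPM at 2.5 µM, and 23.6, 25.6, 21.2 and 19.4 CPM at 5 µM. The 5 µM libraries lay below all others, while control and 2.5 µM overlapped. It fell by 0.61 ± 0.08 on the log2 scale at 5 µM against control (edgeR adjusted p = 3.25e-08) and by 0.45 ± 0.08 at 5 µM against 2.5 µM (adjusted p = 1.15e-05). At 2.5 µM against control the log2 fold change was -0.16 ± 0.08 (adjusted p = 0.0738), and it passed the test without 5 µM replicate 4 (-0.17, adjusted p = 0.0468), 2.5 µM replicate 3 (-0.20, adjusted p = 0.0419) or control replicate 4 (-0.19, adjusted p = 0.0476). The antisense gene AL358852.1 shares 408 exonic bases with LATS1 and is absent from the count table, so its reads could not be checked.

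LATS2 (ENSG00000150457), itself a known YAP target, had 31.2, 33.2, 33.1 and 33.4 CPM in control, 36.7, 39.7, 38.0 and 37.8 CPM at 2.5 µM, and 30.1, 29.6, 26.2 and 24.5 CPM at 5 µM. The 3 groups did not overlap, and their order was that of TEAD1. At 5 µM it fell by 0.25 ± 0.07 on the log2 scale against control (edgeR adjusted p = 0.00214) and by 0.47 ± 0.07 against 2.5 µM (adjusted p = 5.29e-07), and at 2.5 µM it rose by 0.22 ± 0.07 against control (adjusted p = 0.00781). With library size alone, the difference between 5 µM and control was -0.12 and did not pass (adjusted p = 0.135).

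The secreted matricellular proteins CCN1 and CCN2, also called CYR61 and CTGF, are the textbook readouts of YAP and TAZ. CCN1 (ENSG00000142871) had 50.1, 60.8, 56.5 and 84.7 CPM in control, 179, 152, 168 and 165 CPM at 2.5 µM, and 88.8, 103, 84.5 and 86.5 CPM at 5 µM. The 2.5 µM libraries were above all others, and the lowest 5 µM library was just below the highest control. It rose by 1.40 ± 0.14 on the log2 scale, or 2.64-fold, at 2.5 µM against control (edgeR adjusted p = 6.02e-06) and by 0.52 ± 0.14 at 5 µM against control (adjusted p = 0.00596). At 5 µM it fell by 0.88 ± 0.13 against 2.5 µM (adjusted p = 0.000148).

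CCN2 (ENSG00000118523) was nearly silent in control, with 0.781, 1.54, 1.16 and 3.13 CPM. It had 4.09, 3.73, 3.78 and 3.90 CPM at 2.5 µM and 26.1, 28.3, 41.8 and 31.7 CPM at 5 µM. The 3 groups did not overlap and rested on 81, 214 and 1702 summed counts in control, at 2.5 µM and at 5 µM, so that the control level is the least precise. It rose by 4.29 ± 0.24 on the log2 scale at 5 µM against control (edgeR adjusted p = 3.25e-10), by 1.23 ± 0.34, or 2.35-fold, at 2.5 µM against control (adjusted p = 0.00628) and by 3.05 ± 0.20, or 8.29-fold, at 5 µM against 2.5 µM (adjusted p = 4.02e-09). The antisense gene that overlaps CCN2, AL133346.1, had 0 counts in all libraries.

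ANKRD1 (ENSG00000148677) encodes an ankyrin repeat protein of the nucleus and sarcomere. It had 22.9, 29.0, 23.1 and 40.8 CPM in control, 82.8, 83.4, 89.2 and 85.8 CPM at 2.5 µM, and 61.7, 70.6, 63.4 and 66.6 CPM at 5 µM. Both doses were above every control library, with 2.5 µM above 5 µM. It rose by 1.18 ± 0.14 on the log2 scale, or 2.27-fold, at 5 µM against control (edgeR adjusted p = 6.94e-06) and by 1.56 ± 0.14, or 2.95-fold, at 2.5 µM against control (adjusted p = 8.86e-07). At 5 µM it fell by 0.38 ± 0.13 against 2.5 µM (adjusted p = 0.0195). This last call was lost without 5 µM replicate 1 (-0.35, adjusted p = 0.0539), 5 µM replicate 3 (-0.35, adjusted p = 0.0552) or 2.5 µM replicate 3 (-0.36, adjusted p = 0.0502), and with library size alone (-0.29, adjusted p = 0.0664).

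AMOTL2 (ENSG00000114019) encodes an angiomotin-like junction protein that binds YAP and is also induced by it. It had 136, 148, 141 and 171 CPM in control, 219.8, 211, 218 and 235 CPM at 2.5 µM, and 169.6, 175, 156 and 154 CPM at 5 µM. The 2.5 µM libraries were above all others, and control and 5 µM overlapped. It rose by 0.57 ± 0.06 on the log2 scale at 2.5 µM against control (edgeR adjusted p = 7.10e-10) and fell by 0.44 ± 0.06 at 5 µM against 2.5 µM (adjusted p = 7.27e-08). At 5 µM against control the change was 0.13 ± 0.06 (adjusted p = 0.0402), and leaving out 1 library ended this call in 9 of 12 cases: 5 µM replicates 1 and 2, 2.5 µM replicates 1, 2, 3 and 4, and control replicates 1, 2 and 3 (log2 fold changes 0.08 to 0.13, adjusted p 0.0527 to 0.232). A processed pseudogene within AMOTL2, RPL39P5, had at most 10 summed counts in any group.

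All 4 target genes had their highest control value in control replicate 4 and rank the control libraries alike. LATS2 ranked them in the same order, and TEAD4 was also highest in control replicate 4. Without that library, the log2 fold change at 5 µM against control was 0.69 for CCN1, 4.76 for CCN2, 1.38 for ANKRD1 and 0.19 for AMOTL2, and at 2.5 µM against control it was 1.57, 1.72, 1.76 and 0.64 in the same order. Each of these 8 values stayed past the test.

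**Figure D3:**
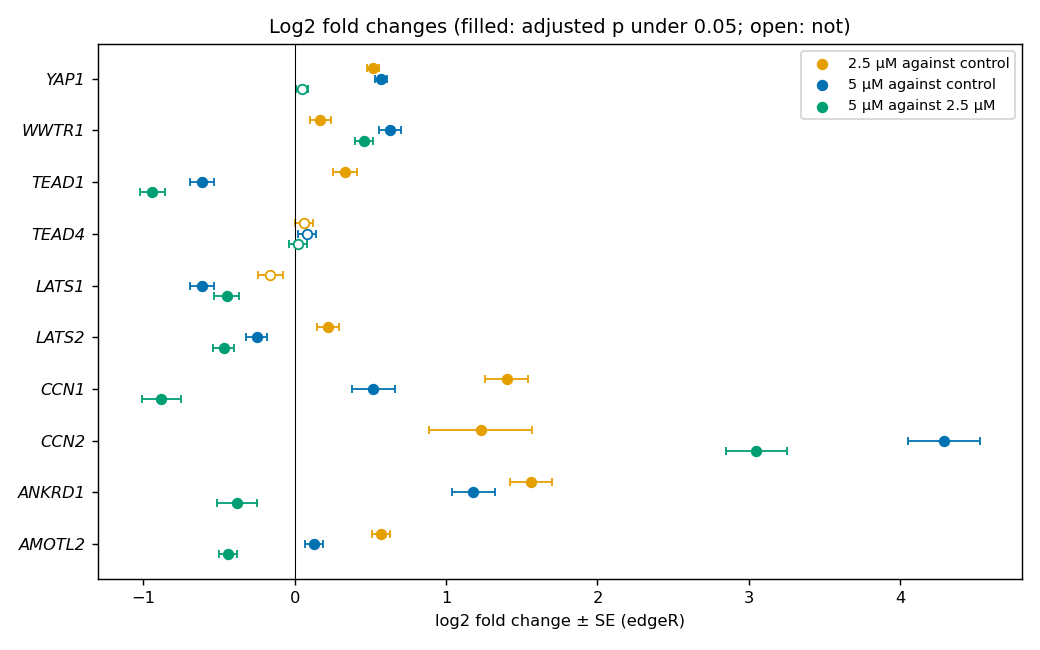
Log2 fold change ± SE from edgeR (x axis) of each gene (y axis) at 2.5 µM against control, 5 µM against control and 5 µM against 2.5 µM; filled points passed an adjusted p of 0.05. CCN2 stands apart at 4.29 for 5 µM against control, and TEAD1 is at 0.33 for 2.5 µM and -0.61 for 5 µM against control.

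Ratios of related genes within a library do not depend on library scaling and show whether the 2 changed unequally. Over 4 pairs and 3 comparisons, 12 exact 2-sided permutation tests were adjusted together, and 8 passed. With 4 against 4 libraries the smallest p possible is 0.0286, which all 8 reached. The log2 CCN1 to CCN2 count ratio was 5.93, 5.27, 5.55 and 4.74 in control, 5.44, 5.34, 5.46 and 5.39 at 2.5 µM, and 1.76, 1.85, 1.01 and 1.45 at 5 µM. The 5 µM libraries were far below the rest, with a difference of -3.85 from control, or 14.4-fold (exact permutation adjusted p = 0.0429), while 2.5 µM and control differed by 0.03 (adjusted p = 0.857). The 2.5 µM ratios lay within the range of the control libraries, and CCN2 gained on CCN1 at 5 µM against 2.5 µM (-3.89, adjusted p = 0.0429).

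The TEAD1 to TEAD4 ratio averaged 2.01 ± 0.19 at 5 µM and 2.70 ± 0.20 in control on the log2 scale (SD, n = 4 each), a difference of -0.69 (exact permutation adjusted p = 0.0429). This was no longer called without 5 µM replicate 3 (-0.61, adjusted p = 0.0857). At 2.5 µM against control the difference was 0.26 (adjusted p = 0.114), and without control replicate 2 it was 0.33 and passed (adjusted p = 0.0381). The log2 LATS1 to LATS2 ratio averaged -0.30 ± 0.06 at 5 µM and 0.05 ± 0.09 in control, a difference of -0.35, and at 2.5 µM it averaged -0.32 ± 0.09, a difference of -0.38 from control (exact permutation adjusted p = 0.0429 for both). LATS2 thus gained on LATS1 at both doses, and the ratio differed by 0.02 between 5 µM and 2.5 µM (adjusted p = 0.842). The YAP1 to WWTR1 ratio was 0.35 higher at 2.5 µM than in control (adjusted p = 0.0429) and differed by -0.06 between 5 µM and control (adjusted p = 0.549).

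**Figure D4:**
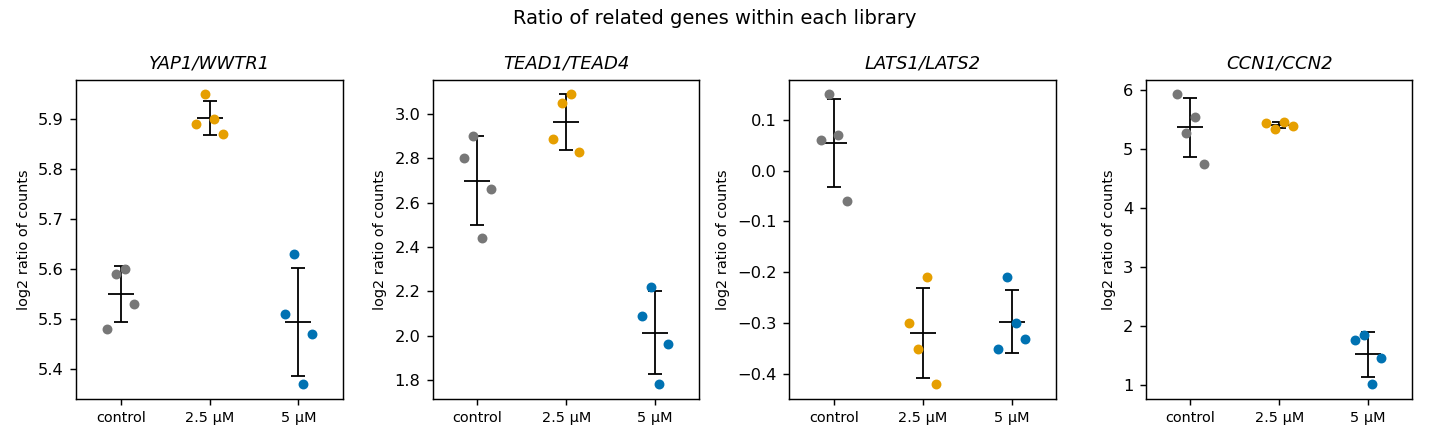
Log2 ratio of counts of related genes within each library (y axis) for control, 2.5 µM and 5 µM acriflavine; points are libraries, line and bars the mean ± SD of 4. The CCN1 to CCN2 ratio is 1.01 to 1.85 at 5 µM and 4.74 to 5.93 in control.

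Levels of different genes were compared per kilobase of exon. In control the order was YAP1 (218 CPM per kilobase), TEAD1 (27.3), CCN1 (25.7), AMOTL2 (24.9), TEAD4 (18.9), ANKRD1 (14.6), LATS2 (5.87), LATS1 (3.94), WWTR1 (3.47) and CCN2 (0.707). Neighbours whose libraries overlapped in control were TEAD1 with CCN1, CCN1 with AMOTL2, TEAD4 with ANKRD1 and LATS1 with WWTR1. At 2.5 µM, CCN1 (67.6), ANKRD1 (43.1), AMOTL2 (36.9) and TEAD1 (34.2) followed YAP1 (313), CCN2 was still last (1.66), and only AMOTL2 and TEAD1 overlapped among neighbours. At 5 µM, CCN2 (13.7) stood seventh, overlapping TEAD1 (17.9) and above WWTR1 (5.38), and LATS1 was last (2.60). YAP1 was first at each dose.

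The wider pathway was described with 6 lists of 100 genes in all (PTPN14 is in 2 of them), of which 90 could be tested. At 5 µM against control 39 were higher, 33 lower and 18 not past the test, with a median log2 fold change of 0.06. These shares at 5 µM against control are near the 38.7% and 39.4% of all genes tested. At 2.5 µM against control 45 were higher and 18 lower (median 0.13), beside 30.7% and 28.5% of all genes. At 5 µM against 2.5 µM 28 were higher and 44 lower (median -0.11), beside 33.6% and 34.8%.

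Upstream, the Hippo kinase core and its adaptors were mixed at 5 µM against control, with 7 of 26 tested genes higher and 11 lower (median -0.06). Of all genes tested, 38.7% were higher and 39.4% lower in that comparison. The scaffold SAV1 rose by 0.73 ± 0.07 on the log2 scale, the LATS cofactor MOB1A by 0.61 ± 0.05 and the kinase MAP4K4 by 0.52 ± 0.05. The MST2 kinase gene STK3 fell by 1.04 ± 0.09, MAP4K2 by 0.91 ± 0.09 and MAP4K5 by 0.78 ± 0.09. With library size alone, 11 genes of this list were higher in that comparison. Over all 16839 genes tested, 7641 were higher with library size alone and 6524 with TMM scaling.

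Genes listed as negative regulators of the kinases split evenly at 5 µM against control, with 7 of 18 higher and 7 lower (median 0.02). These shares are near the 38.7% and 39.4% of all genes. The LIM proteins WTIP and AJUBA, which bind and hold back LATS, rose by 1.79 ± 0.16 and 0.61 ± 0.07 on the log2 scale, and the kinase MARK4 by 1.17 ± 0.07. LIMD1, of the same LIM family, fell by 0.50 ± 0.06. TRAF7 fell by 1.75 ± 0.06, and the STRIPAK phosphatase complex genes STRIP2 and SIKE1 by 1.51 ± 0.09 and 0.76 ± 0.09.

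Of 19 tested genes listed under binding and retention of YAP and TAZ, 9 were higher and 7 lower at 5 µM against control (median 0.05). The list also holds kinase genes, so its members do not share 1 role. Of all genes, 38.7% were higher and 39.4% lower. The largest rises were those of CRB3, of the apical Crumbs complex, by 2.17 ± 0.10 on the log2 scale, PATJ by 1.01 ± 0.07 and PARD3 by 0.68 ± 0.05. PALS1, which joins CRB3 and PATJ in that complex, fell by 0.56 ± 0.07. The casein kinase CSNK1E fell by 0.70 ± 0.06, the atypical protein kinase C gene PRKCI by 0.68 ± 0.08 and the 14-3-3 gene YWHAE by 0.64 ± 0.04. AMOTL1, a relative of AMOTL2, rose by 0.57 ± 0.06 at 5 µM against control and by 0.16 ± 0.06 at 2.5 µM against control. AMOTL2 made up 77.1% ± 1.96 of the angiomotin family level per kilobase in control, 81.8% ± 0.329 at 2.5 µM and 71.4% ± 2.88 at 5 µM (SD, n = 4 each).

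Among TEAD genes and cofactors, 5 of 10 tested were higher and 3 lower at 5 µM against control (median 0.21). The shares of all genes were 38.7% and 39.4%. Beside TEAD3 and TEAD2, the coactivators NCOA1 and NCOA2 rose by 0.93 ± 0.08 and 0.48 ± 0.07 on the log2 scale and RUNX1 fell by 0.31 ± 0.06. In the CCN family outside the 10 genes, CCN5 fell by 0.73 ± 0.06, and CCN4 and CCN6 were too low to test. CCN3 had a log2 fold change of 0.27 ± 0.09 at 5 µM against control (edgeR adjusted p = 0.00789), but its groups overlapped and the call was lost without control replicate 3.

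Of 16 other YAP and TAZ target genes tested, 11 were higher and 4 lower at 5 µM against control (median 0.41), beside 38.7% and 39.4% of all genes. At 2.5 µM against control 12 were higher and 3 lower (median 0.53), beside 30.7% and 28.5%. At 5 µM against 2.5 µM, 6 were higher and 8 lower (median -0.09), beside 33.6% and 34.8%. The matrix gene CCDC80 rose by 1.78 ± 0.05 on the log2 scale, the cytokine gene TGFB2 by 1.50 ± 0.11 and the guanine nucleotide exchange factor ARHGEF17 by 1.11 ± 0.06 at 5 µM against control. DOCK5 fell by 1.06 ± 0.07, the membrane repair gene MYOF by 0.50 ± 0.04 and the receptor kinase gene AXL by 0.23 ± 0.05. With library size alone, AXL was at -0.09 and not called (edgeR adjusted p = 0.0532), and 2 genes of this list were lower in that comparison. Over all 16839 genes tested, 5464 were lower with library size alone and 6641 with TMM scaling. The pattern of CCN1, ANKRD1 and AMOTL2, highest at 2.5 µM, was shared by 7 of the 16 (AXL, CRIM1, F3, IGFBP3, MYOF, NT5E and NUAK2), and the steady rise of CCN2 by 4 (ARHGEF17, CCDC80, FOXF2 and TGFB2), beside the 7.87% and 14.8% of all genes given above. The peak at 2.5 µM was not particular to target genes. It was held by 6 of 26 in the kinase core list, 5 of 18 negative regulators and 4 of 19 in the binding and retention list. Among TEAD genes and cofactors 1 of 10 held it, and in the CCN list 0 of 2.

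**Figure D5:**
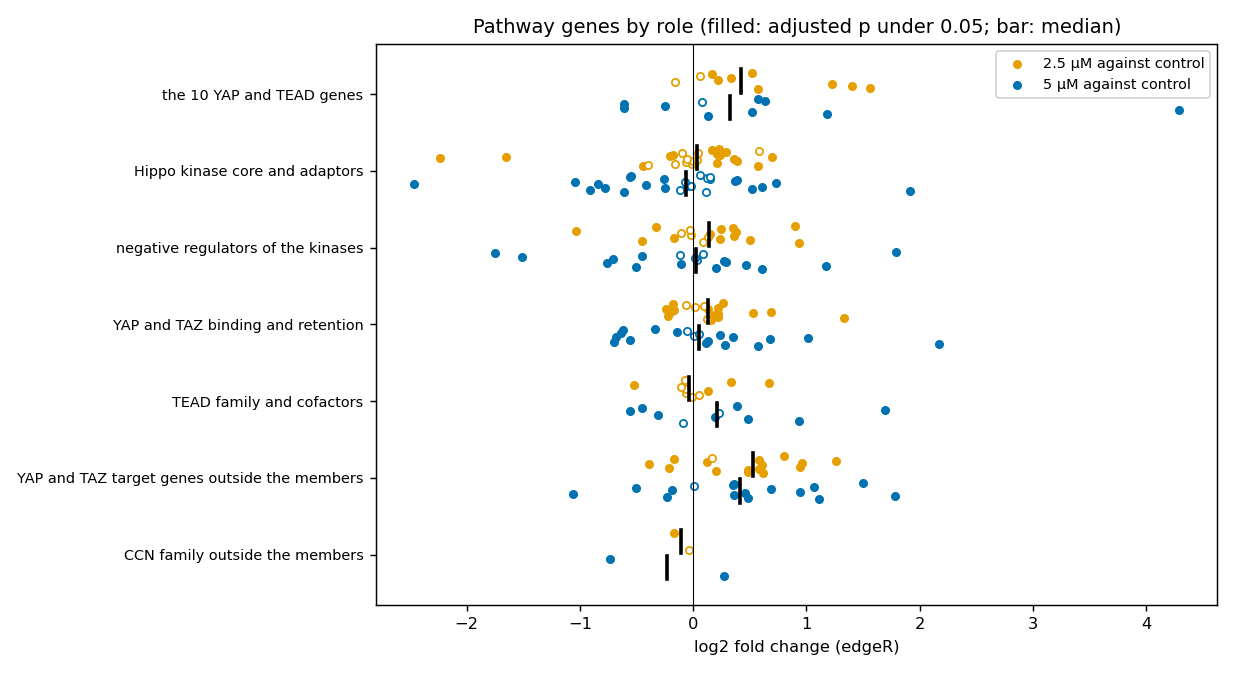
Log2 fold change from edgeR (x axis) of the 10 genes and of 6 lists of pathway genes by role (y axis), at 2.5 µM against control and 5 µM against control; each point is a gene, filled where its adjusted p was under 0.05, and the bar is the list median. Other target genes have medians of 0.53 and 0.41, and the Hippo kinase core has 0.04 and -0.06.

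For each gene, the most similar of 95 candidates among the 10 genes and the lists was found as the Euclidean distance between the 3 group means of log2 CPM, each gene centred on its own mean. CCN1 lay nearest to F3 (distance 0.35), ANKRD1 to NT5E (0.24), AMOTL2 to FRMD6 (0.02) and LATS2 to AXL (0.03). YAP1 lay nearest to ASAP1 (0.06), WWTR1 to AMOTL1 (0.05), TEAD1 to WWC1 (0.11), TEAD4 to CTNNA1 (0.08) and LATS1 to YWHAQ (0.02). CCN2 had no near neighbour: the closest was CRB3 at 1.75. Each distance rests on 3 groups of 4 libraries.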

How the data were processed

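RNA was measured in 12 libraries, and the authors deposited their raw read counts for each Ensembl gene in a single table, without normalization. Per the labels' protocols, libraries were made with a stranded mRNA kit and sequenced on a NextSeq500. Per the submitters' processing notes, the build was GRCh37 and the tools, listed without roles, were STAR 2.4.1d, featureCounts 1.4.6, edgeR 3.8.6, Bowtie2 2.2.4, Cufflinks 2.1.1, cutadapt 1.7.1, SAMtools 1.1 and bedtools 2.17.0. Strand setting, annotation release and handling of multi-mapped reads: not given in the sources used here.

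Symbols were looked up by Ensembl ID (51662 of 63152 genes, holding 99.2% of the counts, and no row without a gene). Exon lengths came from GENCODE 29, and upstream sequence from the RefSeq table of GRCh38.p14, leaving out the 50 bases after the start. Coordinates are those of these windows, in GRCh38.p14; none are given for the genes as counted, whose build differs.

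Genes passing filterByExpr (16839, including all 10 described) were fitted with edgeR 4.0.16 in R 4.3.3 (TMM, glmQLFit with robust, glmQLFTest), all 12 libraries together, groups as the only terms, 9 residual degrees of freedom, adjusted p threshold 0.05 over all genes. The SE is the log2 fold change over the square root of F. The biological coefficient of variation was 5.43%. P-values measure the spread between these libraries, since the labels do not say whether cultures were grown separately. Counts are not corrected for amplification copies. Ratios of related genes used counts plus 0.5. Both tests were checked on simulated data.

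The 10 genes and the lists were chosen with earlier results of these data known. From each list, the text names the 3 largest rises and falls at 5 µM against control with a mean log2 CPM of at least 1, adjusted p under 0.05 and no overlap, and the gene nearest to each of the 10. Other genes (TEAD family, CCN3, AMOTL1, PALS1, LIMD1, those of the dose patterns and with the motif, YAP1's neighbours) were named to complete a family or a count of few genes, after their values were seen. Alternatives were other scalings, filters, DESeq2 1.42.0, fits on 8 libraries, the replicate block and leaving out each library.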

Additional observations from a re-analysis of the deposited data

Results flagged for a closer look

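Over 40 genes in 3 groups, 120 groups of 4 libraries were examined for 1 library far from the other 3. In 3 groups the gap to the nearest library, as a share of the range, exceeded Dixon's 95% critical value for 4 samples, which chance does in about 1 of 20 groups. WWTR1 was at 34.8 CPM in 2.5 µM replicate 3, against 32.1 to 32.4 CPM in the other libraries of that dose. LATS2 was at 31.2 CPM in control replicate 1, against 33.1 to 33.4 CPM. MYOF was at 408 CPM in 5 µM replicate 3, against 421 to 422 CPM.

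Among these 40 genes, the 2 doses had called effects of opposite sign against control for 4, and the fit tested their difference directly as 5 µM against 2.5 µM. For TEAD1 this difference was -0.94 on the log2 scale (edgeR adjusted p = 8.14e-09), for LATS2 -0.47 (adjusted p = 5.29e-07), for MYOF -0.62 (adjusted p = 3.02e-15) and for AXL -0.43 (adjusted p = 1.85e-09). In each of the 4, no library of either dose overlapped the control range.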

How the results depend on the processing

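Over settings other than leaving out a library, 234 of 240 values of the 10 genes kept direction and side of the threshold, with none reversed. The exceptions were YAP1 at 5 µM against 2.5 µM (0.10 with upper quartile scaling, 0.14 with library size alone), TEAD4 (0.22) and LATS2 (-0.12) at 5 µM against control and ANKRD1 at 5 µM against 2.5 µM (-0.29) with library size alone, and WWTR1 at 2.5 µM against control without a filter (0.17). Library size alone moved the median of all genes at 5 µM against control to 0.12, from -0.01. The cause of these changes was not tested. Leaving out 1 library kept 340 of 360 values. Ranges where a call or a sign changed were 0.08 to 0.19 for AMOTL2 and -0.78 to -0.61 for the TEAD1 to TEAD4 ratio at 5 µM against control. At 2.5 µM against control they were 0.12 to 0.20 for WWTR1, -0.20 to -0.12 for LATS1, 0.18 to 0.33 for the TEAD1 to TEAD4 ratio and -0.18 to 0.22 for the CCN1 to CCN2 ratio. At 5 µM against 2.5 µM they were -0.41 to -0.35 for ANKRD1, -0.01 to 0.04 for TEAD4 and -0.01 to 0.06 for the LATS1 to LATS2 ratio. For TEAD4 and for the LATS1 to LATS2 and CCN1 to CCN2 ratios only the sign of an uncalled value changed. Alternatives were run for the 30 list genes named by rule, of which 12 values were no longer called and 2 became called, all but AXL at 5 µM at 2.5 µM against control. Their reversals were near 0 and not called: TEAD2 at 5 µM against 2.5 µM (0.00 with RLE scaling and DESeq2, 0.02 with upper quartile scaling, 0.05 with library size alone, -0.07 to 0.02 leaving out 1 library), SAV1 at 5 µM against 2.5 µM (-0.01 without 2.5 µM replicate 1) and MAP4K5 at 2.5 µM against control (0.00 without 2.5 µM replicate 4).

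Replicate numbers did not pair the samples: correlations of same-numbered deviations were -0.130 to 0.0745, and not every sample matched its own number best. A fit with the replicate block called 13091, 9828 and 11423 genes (5 µM against control, 2.5 µM against control, 5 µM against 2.5 µM), against 13165, 9957 and 11526 without it, and changed no call among the 10 genes. For ratios, switching signs within numbers cannot give p under 0.125, so the 8 called differences did not pass with the replicate block: -0.69, -0.35 and -3.85 (TEAD1 to TEAD4, LATS1 to LATS2, CCN1 to CCN2) at 5 µM against control, 0.35 and -0.38 (YAP1 to WWTR1, LATS1 to LATS2) at 2.5 µM against control, and -0.41, -0.95 and -3.89 (YAP1 to WWTR1, TEAD1 to TEAD4, CCN1 to CCN2) at 5 µM against 2.5 µM. Their values were the same. CCN2 in control rests on 81 counts over 4 libraries.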

Other observations

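The protein-coding genes beside YAP1 in the order of GENCODE 29 were read after YAP1's high level was seen. Among the 5 genes on either side of it, TMEM123 had 59.1 ± 6.79 CPM per kilobase in control, 59.2 ± 7.19 at 2.5 µM and 48.5 ± 2.24 at 5 µM (SD, n = 4 each). BIRC3, which encodes an inhibitor of apoptosis, had 80.0 ± 13.9 in control, 71.5 ± 9.47 at 2.5 µM and 27.0 ± 2.14 at 5 µM, and its relative BIRC2 had 16.2 ± 2.06, 21.3 ± 1.85 and 21.0 ± 1.01. On the other side of YAP1, CEP126 had 8.38 ± 1.05, 9.04 ± 0.898 and 14.3 ± 1.89 CPM per kilobase in control, at 2.5 µM and at 5 µM. The remaining neighbours, PGR, TRPC6, ANGPTL5, CFAP300, MMP7 and MMP20, averaged at most 3.20 CPM per kilobase in any group. YAP1 had 218 ± 4.36, 313 ± 13.7 and 324 ± 15.2 on the same scale, the highest of the 11 genes in every group. Differences between the neighbours were not tested.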
